A study of Mus musculus with 21 samples.

Results

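The genes examined here are 32 listed genes of fat cells, brown fat and fat synthesis, of which 30 were measured in 21 mouse tumours. They were found by symbol among the 19505 named genes of the array, and each of the 30 had 1 probe set, so no choice between probe sets arose. Cfd, which encodes adipsin, and Adrb3, the beta-3 adrenergic receptor of adipocytes, could be matched to no named probe set here and have no value. The tumours came from female C57BL/6J mice, aged 5 to 6 weeks when Hepa1-6 hepatoma cells were placed under their skin, and each array held RNA of 1 mouse from a 30 mg piece. Mice were randomized once a tumour reached 200 mm3. The 5 mice of the lenvatinib arm were given lenvatinib, an inhibitor of VEGF, FGF and related receptor kinases, at 10 mg/kg by gavage each day. The 5 mice of the anti-PD1 arm were given an antibody against PD-1, an inhibitory receptor of T cells, at 10 mg/kg into the peritoneum in 5 doses spaced 3 days apart. The 5 mice of the combination arm had both agents, and the 6 mice of the placebo arm had the drug vehicle and a polyclonal IgG. Whether the lenvatinib arm also had the IgG, or the anti-PD1 arm the vehicle, is not given in the sources used here. Tumours were taken 13 days after randomization, when 2 h had passed since the final gavage and 1 day since the final antibody injection. The pieces hold host tissue as well as hepatoma cells, and how much of each a piece held is not given in the sources used here.

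White adipocytes keep triglyceride in a droplet coated by perilipins and CIDE proteins, release fatty acids from it with lipases, and secrete adiponectin, leptin and, in mice, resistin. Brown adipocytes burn fatty acids for heat through the uncoupling protein UCP1. Fatty acid synthesis runs from citrate through ATP citrate lyase, acetyl-CoA carboxylase and fatty acid synthase to the elongases and desaturases, and takes place in fat, in liver and in many tumour cells. RNA of these enzymes in a tumour piece can therefore come from host fat or from hepatoma cells, whereas adiponectin, resistin, leptin and perilipin 1 are made mainly by adipocytes. In bulk RNA, fewer adipocytes in a piece and less of an RNA per adipocyte cannot be told apart.

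The start-site windows of 4 members are shown because they stand for the classes compared below: Adipoq for white adipocytes, Ucp1 for brown adipocytes, and Fasn and Acly for enzymes made in many cells. Each is the RefSeq sequence on GRCm38.p6 that begins 250 bases before the transcription start and ends 50 bases after it, written 5′ to 3′ on the gene's strand. Capitals mark 3 motifs on either strand. The first is AGGTCA, the single element of nuclear receptor sites. The second is CCAAT, the CCAAT box, which reads ATTGG where it lies on the other strand. The GC box is GGGCGG, which reads CCGCCC there. The windows lie at chr16:23146286-23146585 (plus strand) for Adipoq, chr8:83290098-83290397 (plus strand) for Ucp1, chr11:120824498-120824797 (minus strand) for Fasn and chr11:100527951-100528250 (minus strand) for Acly.
Adipoq: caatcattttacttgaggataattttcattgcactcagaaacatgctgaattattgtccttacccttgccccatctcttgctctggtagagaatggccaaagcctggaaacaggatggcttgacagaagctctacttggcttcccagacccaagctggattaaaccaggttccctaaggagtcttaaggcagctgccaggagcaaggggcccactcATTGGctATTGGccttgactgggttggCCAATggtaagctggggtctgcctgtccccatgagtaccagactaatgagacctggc
Ucp1: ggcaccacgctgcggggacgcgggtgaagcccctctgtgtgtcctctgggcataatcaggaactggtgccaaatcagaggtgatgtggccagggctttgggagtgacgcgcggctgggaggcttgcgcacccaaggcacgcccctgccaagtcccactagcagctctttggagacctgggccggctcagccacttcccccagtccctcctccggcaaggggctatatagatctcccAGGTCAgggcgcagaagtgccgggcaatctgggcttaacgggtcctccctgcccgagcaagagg
Fasn: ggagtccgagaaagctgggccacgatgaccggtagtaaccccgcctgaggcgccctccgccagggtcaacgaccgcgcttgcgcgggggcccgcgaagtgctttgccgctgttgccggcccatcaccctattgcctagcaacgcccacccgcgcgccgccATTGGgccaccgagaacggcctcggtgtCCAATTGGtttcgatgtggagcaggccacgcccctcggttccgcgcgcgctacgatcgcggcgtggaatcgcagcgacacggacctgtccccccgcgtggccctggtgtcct
Acly: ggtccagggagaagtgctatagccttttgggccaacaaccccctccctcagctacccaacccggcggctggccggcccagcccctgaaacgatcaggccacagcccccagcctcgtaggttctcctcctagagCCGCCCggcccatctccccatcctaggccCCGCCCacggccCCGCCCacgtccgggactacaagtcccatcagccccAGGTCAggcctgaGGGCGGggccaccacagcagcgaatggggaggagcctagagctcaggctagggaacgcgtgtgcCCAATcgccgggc

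The Adipoq window held 3 CCAAT boxes, which begin at -34, -27 and -7 from the start site. The Fasn window also held 3, at -90, -62 and -59, of which the last pair shares letters. The Ucp1 window held 1 AGGTCA, at -14, and neither of the other 2 motifs. The Acly window held 4 GC boxes, 1 AGGTCA and 1 CCAAT box. Windows were found for 23 of the 30 measured members, 31 windows in all. A CCAAT box on either strand was in 9 of the 31 windows (29.0%) and in 37.4% of all 32851 windows. A GC box was in 12 of the 31 (38.7%) and in 35.7% of all windows, and AGGTCA was in 8 of the 31 (25.8%) and in 16.3% of all. The direct repeat of AGGTCA with 1 base between, which PPAR gamma binds with RXR, was in 0 of the 31 and in 0.04% of all windows, and the E-box CACGTG was in 2 of the 31 (6.45%) and in 7.15% of all. Of the other motifs searched on both strands, the TATA box TATAAA was in 1 of the 31 and in 13.62% of all windows. The sterol element core CACCCCAC was in 1 of the 31 and in 2.87% of all. The C/EBP site TTGCNNAA was in 4 of the 31 and in 10.8% of all. A match here is a match of letters, and no binding was measured.

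All levels below are log2 signals after RMA, the authors' background correction, quantile normalization and summary of probes, so levels of different genes are not compared. The median over 5222 negative control rows was 4.08, and Ucp1 was the only member whose mean over the 21 tumours lay below it. Array medians lay between 5.32 and 5.49. In 6 arrays (lenvatinib mice 1 and 2, anti-PD1 mouse 1, combination mouse 1, and placebo mice 4 and 6) the 18 hybridization control rows averaged 11.33 or more, against 10.91 or less in the other 15, and the interquartile range was 2.41 to 2.82, against 3.00 to 3.25. The mice are separate animals, and p-values measure the spread between them. Of the 8 hepatoma markers, 6 were above the control median in every piece, and Afp and Hnf4a, a liver transcription factor, were each below it in 1. Alb, the albumin gene, spanned 7.56 (placebo mouse 1) to 12.55 (anti-PD1 mouse 5), and Afp, the fetal liver protein alpha-fetoprotein, spanned 3.75 (anti-PD1 mouse 2) to 11.94 (anti-PD1 mouse 5) with a median of 11.19.

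The members varied widely between tumours of the same arm. Over the 21 tumours their ranges ran from 2.05 for Acly to 8.57 for Ucp1. Adipoq, the adipocyte hormone adiponectin, had log2 signals of 8.19, 6.29, 4.15, 8.67 and 4.60 in lenvatinib tumours, 11.23, 11.98, 7.58, 10.996 and 4.58 in anti-PD1 tumours, 4.01, 9.29, 9.83, 8.83 and 7.73 in combination tumours and 11.32, 6.26, 9.46, 11.49, 7.86 and 11.04 in placebo tumours. The arms overlapped, and the 3 lowest tumours were combination mouse 1, lenvatinib mouse 3 and anti-PD1 mouse 5, while the lowest placebo tumour was at 6.26. Retn, the hormone resistin, which mouse adipocytes secrete, was at 7.76, 6.28, 4.52, 9.07 and 4.74 in lenvatinib tumours, 11.94, 12.16, 7.80, 11.15 and 4.57 in anti-PD1 tumours, 4.05, 9.76, 10.29, 9.12 and 8.30 in combination tumours and 11.37, 7.03, 10.04, 11.85, 8.59 and 11.83 in placebo tumours. The same 3 tumours were the lowest for Retn, and anti-PD1 mouse 2 was the highest for both hormones. Lep, the satiety hormone leptin, was at 6.01, 5.50, 4.78, 6.07 and 3.86 in lenvatinib tumours, 9.26, 9.48, 5.10, 7.46 and 4.18 in anti-PD1 tumours, 4.64, 6.84, 6.76, 6.19 and 5.50 in combination tumours and 8.06, 4.76, 6.39, 9.16, 5.41 and 7.89 in placebo tumours. Its highest level was again in anti-PD1 mouse 2 and its lowest in lenvatinib mouse 5.

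**Figure D1:**
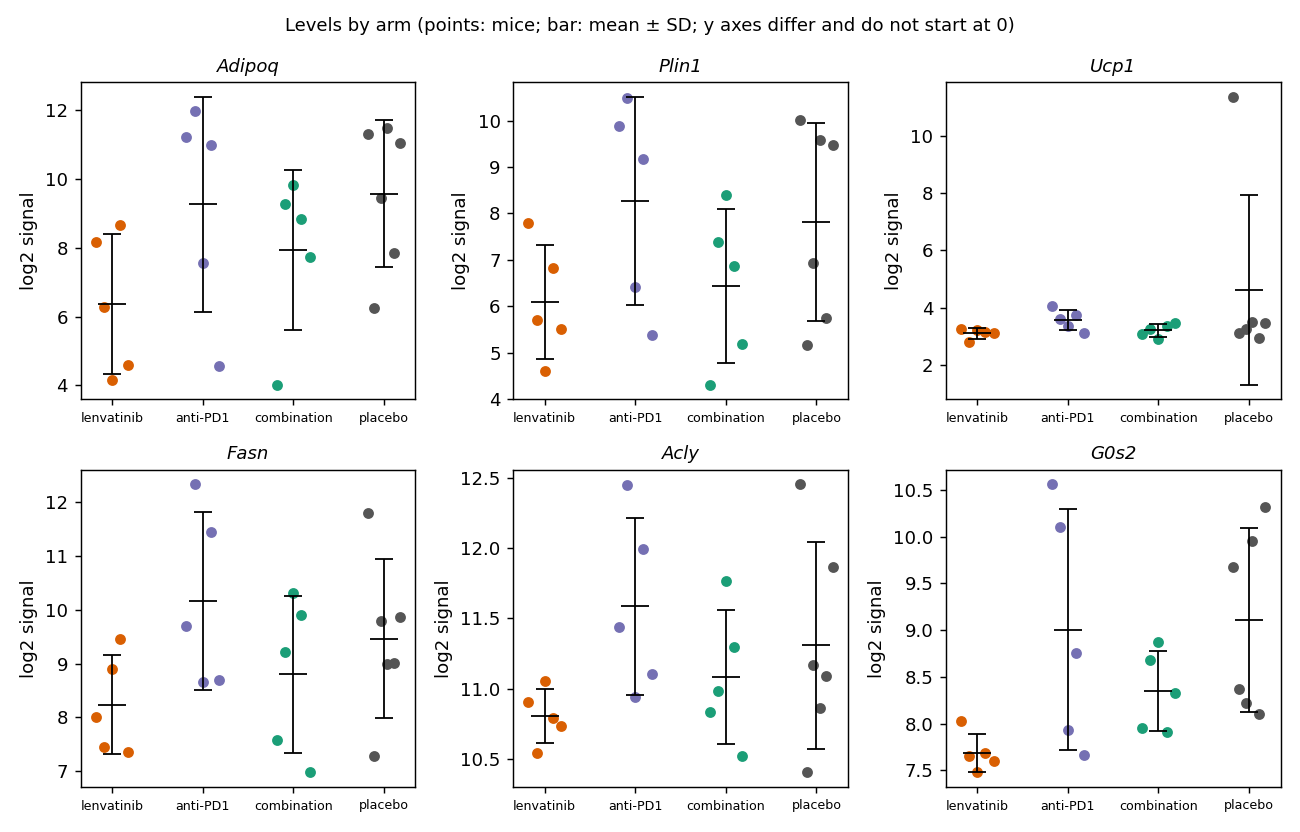
Log2 signal of single members in each tumour (points), by arm, with the mean and SD of the arm as bars. The y axes differ between panels and do not start at 0. The arms overlap in every panel, save that for G0s2 the 5 lenvatinib tumours lie below the 6 placebo tumours. They overlap the anti-PD1 and combination tumours there.

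Among the genes of the lipid droplet, Plin1 encodes perilipin 1, the main droplet coat of adipocytes. It was at 7.79, 5.71, 4.61, 6.82 and 5.52 in lenvatinib tumours, 9.87, 10.50, 6.42, 9.18 and 5.38 in anti-PD1 tumours, 4.30, 7.37, 8.40, 6.86 and 5.19 in combination tumours and 10.01, 5.17, 6.93, 9.58, 5.75 and 9.48 in placebo tumours. Cidec, which promotes the growth of 1 large droplet, was at 5.66, 5.16, 3.55, 6.47 and 3.74 in lenvatinib tumours, 8.54, 9.90, 5.15, 8.63 and 4.13 in anti-PD1 tumours, 3.84, 6.36, 7.13, 5.75 and 4.79 in combination tumours and 9.19, 4.52, 6.64, 8.48, 4.62 and 7.63 in placebo tumours. Both were highest in anti-PD1 mouse 2, and the next highest was placebo mouse 1. The coat gene Plin4 spanned 4.82 to 9.41, the lipase genes Pnpla2 (adipose triglyceride lipase) and Lipe (hormone-sensitive lipase) spanned 7.41 to 12.05 and 5.11 to 10.71, and all 3 were highest in anti-PD1 mouse 2. G0s2, which encodes an inhibitor of adipose triglyceride lipase, was at 8.03, 7.65, 7.48, 7.68 and 7.60 in lenvatinib tumours, against 9.67, 8.37, 8.22, 9.96, 8.10 and 10.32 in placebo tumours. It was the 1 member of 30 for which all lenvatinib tumours lay below all placebo tumours, and over all probe sets 0.302% had lenvatinib tumours wholly below placebo and 0.288% wholly above. In anti-PD1 tumours G0s2 was at 10.56, 10.10, 7.94, 8.76 and 7.66, and in combination tumours it was at 7.95, 8.68, 8.88, 7.91 and 8.33.

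The uptake genes were highest in anti-PD1 mouse 2 or placebo mouse 4. Fabp4, the fatty acid binding protein of adipocytes, which macrophages and capillary endothelium also make, spanned 8.86 (combination mouse 1) to 13.03 (placebo mouse 4, with anti-PD1 mouse 2 second). Lpl, lipoprotein lipase, spanned 6.25 to 9.28, and Aqp7, the glycerol channel of adipocytes, spanned 4.82 to 10.77. Both were highest in anti-PD1 mouse 2.

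Brown fat genes marked out 1 tumour. Ucp1 was at 11.36 in placebo mouse 1 and at 2.95 to 3.51 in the other 5 placebo tumours. It was at 3.26, 2.79, 3.21, 3.13 and 3.10 in lenvatinib tumours, 4.05, 3.60, 3.37, 3.73 and 3.09 in anti-PD1 tumours and 3.06, 3.24, 2.90, 3.34 and 3.47 in combination tumours. The next highest of all, 4.05 in anti-PD1 mouse 1, lay below the median of the negative controls, so Ucp1 was at the level of these controls in 20 of 21 tumours. Cidea, a droplet protein abundant in brown adipocytes, was at 8.45 in placebo mouse 1, next at 6.08 in anti-PD1 mouse 2, and below the control median in 14 tumours. Of 11 other genes linked to brown fat, Cox8b (12.01), Cox7a1 (11.35), Ppargc1a (10.47), Otop1 (8.92) and Dio2 (5.89) were also highest in placebo mouse 1. Zic1 (5.18), Prdm16 (4.28), Kcnk3 (5.69), Lhx8 (6.54), Slc36a2 (7.54) and Elovl3 (6.77) were highest elsewhere. Cox8b, Cox7a1 and Ppargc1a are also genes of muscle, and placebo mouse 1 was among the tumours rich in muscle genes: Myh4, a fast muscle myosin, was at 11.85 there. Myh4 was as high in lenvatinib mouse 4 (11.94) and placebo mouse 5 (11.78), where Ucp1 was at 3.13 and 2.95. The part of muscle in the brown fat genes was not tested.

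Of the fatty acid synthesis genes, Fasn encodes fatty acid synthase. It was at 8.01, 7.46, 8.91, 9.46 and 7.36 in lenvatinib tumours, 9.70, 12.33, 8.65, 11.44 and 8.69 in anti-PD1 tumours, 7.58, 9.21, 10.32, 9.90 and 6.98 in combination tumours and 11.80, 7.28, 9.79, 9.00, 9.02 and 9.86 in placebo tumours. Its highest values were in anti-PD1 mouse 2 and placebo mouse 1, and its lowest in combination mouse 5. Fasn stayed well above the control median in every tumour, including lenvatinib mouse 3 (8.91) and anti-PD1 mouse 5 (8.69), where Adipoq was at 4.15 and 4.58. Acly, ATP citrate lyase, which makes cytosolic acetyl-CoA, was at 10.91, 10.54, 11.05, 10.79 and 10.73 in lenvatinib tumours, 11.44, 12.45, 10.94, 12.00 and 11.10 in anti-PD1 tumours, 10.83, 10.98, 11.77, 11.30 and 10.52 in combination tumours and 12.45, 10.40, 11.17, 10.86, 11.09 and 11.86 in placebo tumours. Acly had the narrowest range of the 30 members, and its lowest level was 10.40 in placebo mouse 2. Acaca, acetyl-CoA carboxylase 1, was at 7.73, 7.13, 7.27, 7.34 and 6.70 in lenvatinib tumours, 10.17, 11.01, 6.96, 9.96 and 7.08 in anti-PD1 tumours, 7.08, 8.05, 9.14, 8.21 and 6.90 in combination tumours and 10.52, 6.48, 8.56, 8.38, 7.68 and 11.03 in placebo tumours. Its highest level was in placebo mouse 6 and its lowest in placebo mouse 2.

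Scd1, the stearoyl-CoA desaturase of fat and liver, was at 9.30, 7.68, 7.89, 9.85 and 6.88 in lenvatinib tumours, 10.80, 12.04, 8.75, 11.10 and 8.02 in anti-PD1 tumours, 7.42, 10.00, 10.25, 10.37 and 8.56 in combination tumours and 11.54, 7.89, 9.85, 10.99, 9.12 and 10.52 in placebo tumours. In 3 of 5 lenvatinib tumours it was at or below the lowest placebo tumour, and the other 2 lay inside the placebo range. Thrsp, a nuclear protein of lipogenic tissues also called Spot 14, was at 7.96, 4.59, 3.72, 8.50 and 5.06 in lenvatinib tumours, 11.12, 11.90, 6.39, 11.24 and 4.22 in anti-PD1 tumours, 5.14, 9.77, 10.31, 9.80 and 7.51 in combination tumours and 11.86, 6.62, 10.01, 11.06, 8.98 and 11.14 in placebo tumours. Thrsp was below the control median in lenvatinib mouse 3 (3.72) and close to it in anti-PD1 mouse 5 (4.22). Elovl6, a fatty acid elongase, spanned 5.80 to 10.47, and Me1, malic enzyme 1, which supplies NADPH, spanned 7.11 to 11.60, both from combination mouse 5 to anti-PD1 mouse 2. Mlxipl, the carbohydrate-responsive factor ChREBP, spanned 4.41 to 7.11 and was highest in placebo mouse 1.

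The glycerolipid genes and the remaining members were highest in anti-PD1 mouse 2, placebo mouse 1 or, for Pck1, placebo mouse 4. Dgat2, which makes the last bond of triglyceride, spanned 4.04 to 10.80. Agpat2 and Lpin1, earlier steps of the same route, spanned 7.40 to 11.35 and 6.38 to 9.19. Gpd1, which makes glycerol 3-phosphate, spanned 5.84 to 11.12, and Pck1, which feeds glyceroneogenesis in fat, spanned 4.16 to 7.73. Pparg, the master regulator of adipocyte differentiation, spanned 5.74 to 10.16. Car3, a carbonic anhydrase abundant in fat and muscle, spanned 3.48 to 11.35, and Acvr1c, the activin receptor ALK7 of adipocytes, spanned 3.40 to 10.07. These 3 were all highest in anti-PD1 mouse 2.

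**Figure D2:**
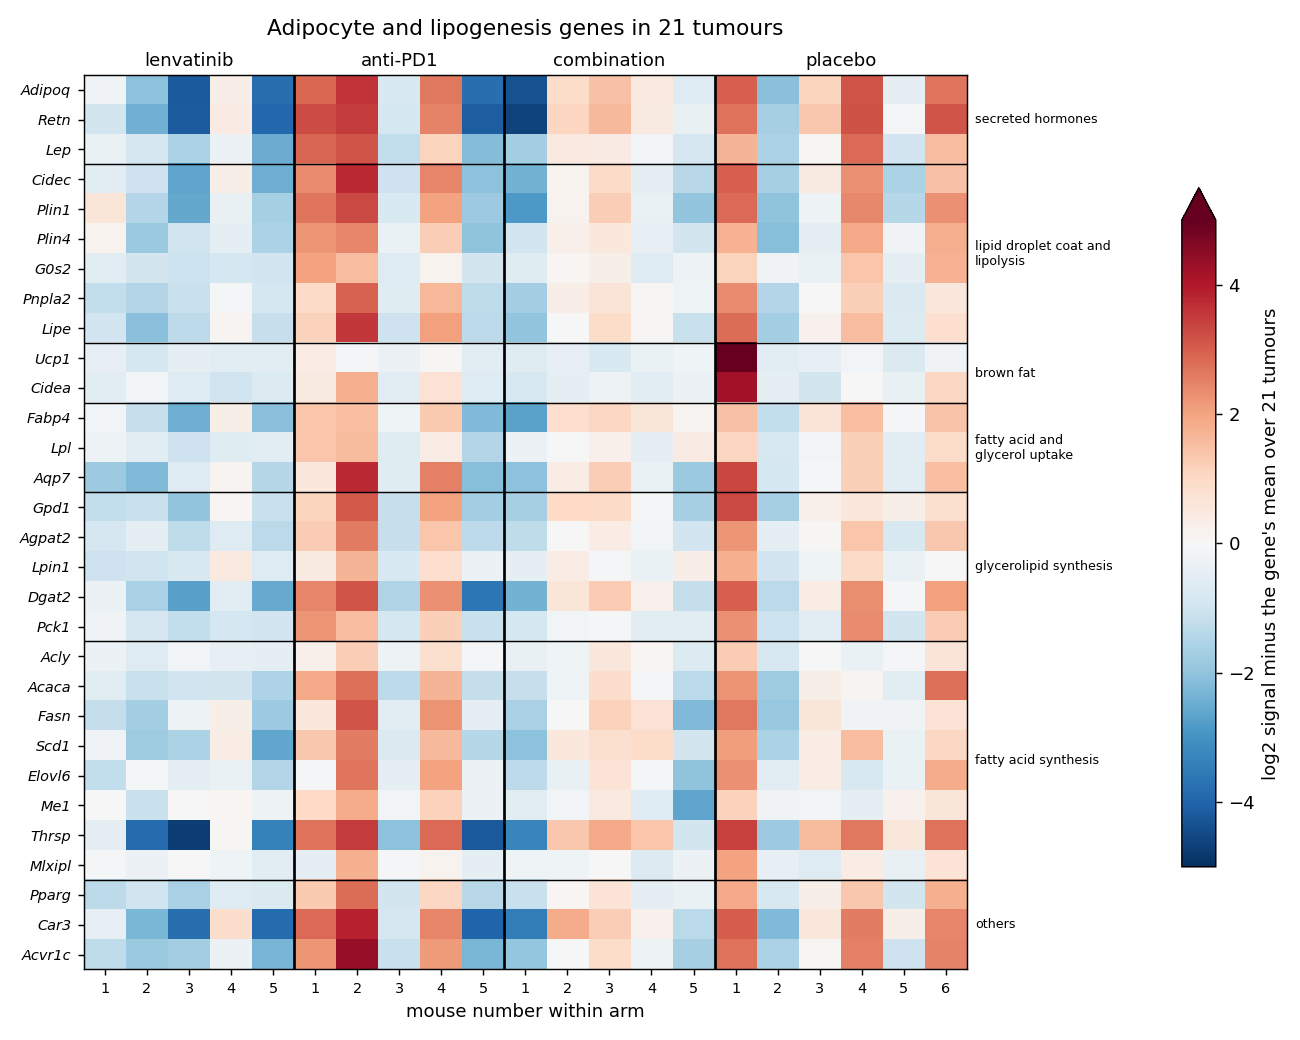
Log2 signal of the 30 measured members (rows, by role) in 21 tumours (columns, by arm), each gene as its difference from its own mean over the 21 tumours. The scale is capped at 5, which Ucp1 in placebo mouse 1 exceeds, and anti-PD1 mouse 2 and placebo mouse 1 stand out as high for most rows.

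A few tumours carried most of the high values. Anti-PD1 mouse 2 was the highest of the 21 for 20 of 30 members and in the top 3 for 28, and placebo mouse 1 was the highest for 6 and in the top 3 for 25. For 17 members, the same 6 of 11 tumours without lenvatinib (anti-PD1 mice 1, 2 and 4, and placebo mice 1, 4 and 6) lay above all 10 tumours with lenvatinib. For 7 members 5 tumours did so, for 5 members 4, and for Fasn 3. In 0 of 30 members was a lenvatinib-treated tumour above all lenvatinib-free ones. The share of all probe sets with such an order was not counted, so whether the order is unusual for a gene is not known. As the members varied together between tumours, these counts largely repeat the same order of tumours. Of the 6 tumours, anti-PD1 mouse 1 and placebo mice 4 and 6 were on arrays with bright controls. So were lenvatinib mice 1 and 2 and combination mouse 1 among the 10 with lenvatinib. The mean of the members, each centred on its own mean, was -1.66 to -0.17 in lenvatinib tumours, -1.69 to 2.63 in anti-PD1 tumours, -1.71 to 0.71 in combination tumours and -1.25 to 2.54 in placebo tumours. All 4 arms overlapped in this score, whose means were -1.07 ± 0.66 in lenvatinib, 0.65 ± 1.80 in anti-PD1, -0.34 ± 0.97 in combination and 0.63 ± 1.40 in placebo tumours (SD, n = 5, 5, 5 and 6).

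The first comparison asked what lenvatinib did alone. All 30 members were lower on average in lenvatinib than in placebo tumours, and none passed the test. The members varied together between tumours, so counts of members here and in the comparisons below are not counts of independent genes. The list was also chosen with earlier results of these data known. These counts therefore describe the list and are no independent test of it. Thrsp averaged 5.97 ± 2.13 in lenvatinib and 9.94 ± 1.92 in placebo tumours (SD, n = 5 and 6), a log2 difference of -3.98 ± 1.35 (SE). The difference was -3.64 ± 1.35 for Retn, -3.19 ± 1.33 for Adipoq (0.109 of the placebo level), -1.67 ± 0.63 for Pparg and -1.42 ± 0.48 for G0s2. Their adjusted p was 0.693, in limma with Benjamini-Hochberg adjustment over 22206 probe sets, and 0% of all probe sets had an adjusted p under 0.05. Fasn averaged 8.24 ± 0.92 in lenvatinib and 9.46 ± 1.48 in placebo tumours, a difference of -1.22 ± 0.78 with a 95% interval of -2.84 to 0.40 (limma adjusted p = 0.731), and it was -0.75 without placebo mouse 1. The median difference of the 30 members was -1.56, with a range of -3.98 to -0.47, and that of all probe sets was -0.01. With no adjustment, 13 of 30 members were lower and 0 higher at p under 0.05, where 4.05% of all probe sets were lower and 2.92% higher. These 13 were Adipoq and Retn of 3 hormones, 1 of 7 droplet genes, 2 of 3 uptake genes, Thrsp and Scd1 of 8 synthesis genes, 3 of 5 glycerolipid genes, and all 3 of Pparg, Car3 and Acvr1c. The 8 members listed as adipocyte-restricted (Adipoq, Retn, Lep, Cidec, Plin1, Plin4, Ucp1 and Cidea) had a median difference of -1.71. Of these, Ucp1 was below the control median in all tumours but placebo mouse 1, and Cidea in 14 tumours. The 9 lipogenic enzymes made in many cells (Acly, Acaca, Fasn, Scd1, Elovl6, Me1, Agpat2, Lpin1 and Dgat2) had a median difference of -1.22, and the difference between these classes was not tested. Without the 6 arrays with bright controls the difference of Adipoq was -2.92 and the median of the members -1.23. In the same comparison the 8 measured hepatoma markers were all higher on average in lenvatinib tumours, with a median of 1.92 and 0 past the adjusted threshold, and the 12 skeletal muscle genes had a median of -0.84. Their part in the difference of the members was not tested.

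The second comparison asked what the antibody did alone. Here 17 of 30 members were higher and 13 lower on average in anti-PD1 than in placebo tumours, and 0 passed (0% of all probe sets). The median difference was 0.08, with a range of -1.04 to 0.70, and the median lay between -0.41 (without anti-PD1 mouse 2) and 0.66 (without anti-PD1 mouse 5) as each mouse was left out. At an unadjusted p under 0.05, 0 members were called in either direction, where 1.38% of all probe sets were higher and 2.68% lower. Adipoq averaged 9.27 ± 3.12 in anti-PD1 and 9.57 ± 2.14 in placebo tumours (SD, n = 5 and 6), a difference of -0.30 ± 1.33 whose 95% interval was -3.07 to 2.47. It lay between -0.98 and 0.87 as each mouse was left out in turn. The differences were 0.70 ± 0.78 for Fasn, 0.51 ± 0.46 for Me1 and 0.28 ± 0.32 for Acly, with limma adjusted p above 0.99 for each, and Fasn was 0.16 without anti-PD1 mouse 2 and 1.17 without placebo mouse 1. In the same comparison all 12 muscle genes (median -1.58) and all 7 macrophage genes (median -1.06) were lower, and 7 of 8 hepatoma markers were higher (median 0.68). Their part in the members' values was not tested. Ucp1 differed by -1.04 ± 1.00, and by 0.31 without placebo mouse 1.

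The third comparison asked what both agents did together. All 30 members were lower on average in combination than in placebo tumours, with a median of -0.94 and a range of -1.81 to -0.23, and 0 passed (0% of all probe sets). At an unadjusted p under 0.05, 0 members were called, where 1.3% of all probe sets were lower and 1.01% higher. Adipoq averaged 7.94 ± 2.33 in combination tumours against 9.57 ± 2.14 in placebo tumours, a difference of -1.63 ± 1.33, and of 0.19 without the 6 arrays with bright controls. Without combination mouse 1 alone it was -0.65, and the median of the members was -0.61 without placebo mouse 1. Fasn differed by -0.66 ± 0.78, with values from -1.09 (without placebo mouse 2) to -0.19 (without placebo mouse 1) as each mouse was left out. The other differences were -0.90 ± 0.46 for Me1, -1.09 ± 0.65 for Elovl6, -1.05 ± 0.64 for Cidea and -1.01 ± 0.62 for Agpat2. In the same comparison all 12 muscle genes were lower (median -1.19), and 6 of 8 hepatoma markers were higher (median 0.35). Their part in the members' values was not tested. The 3 comparisons with placebo share the 6 placebo tumours, so they are not independent of each other.

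**Figure D3:**
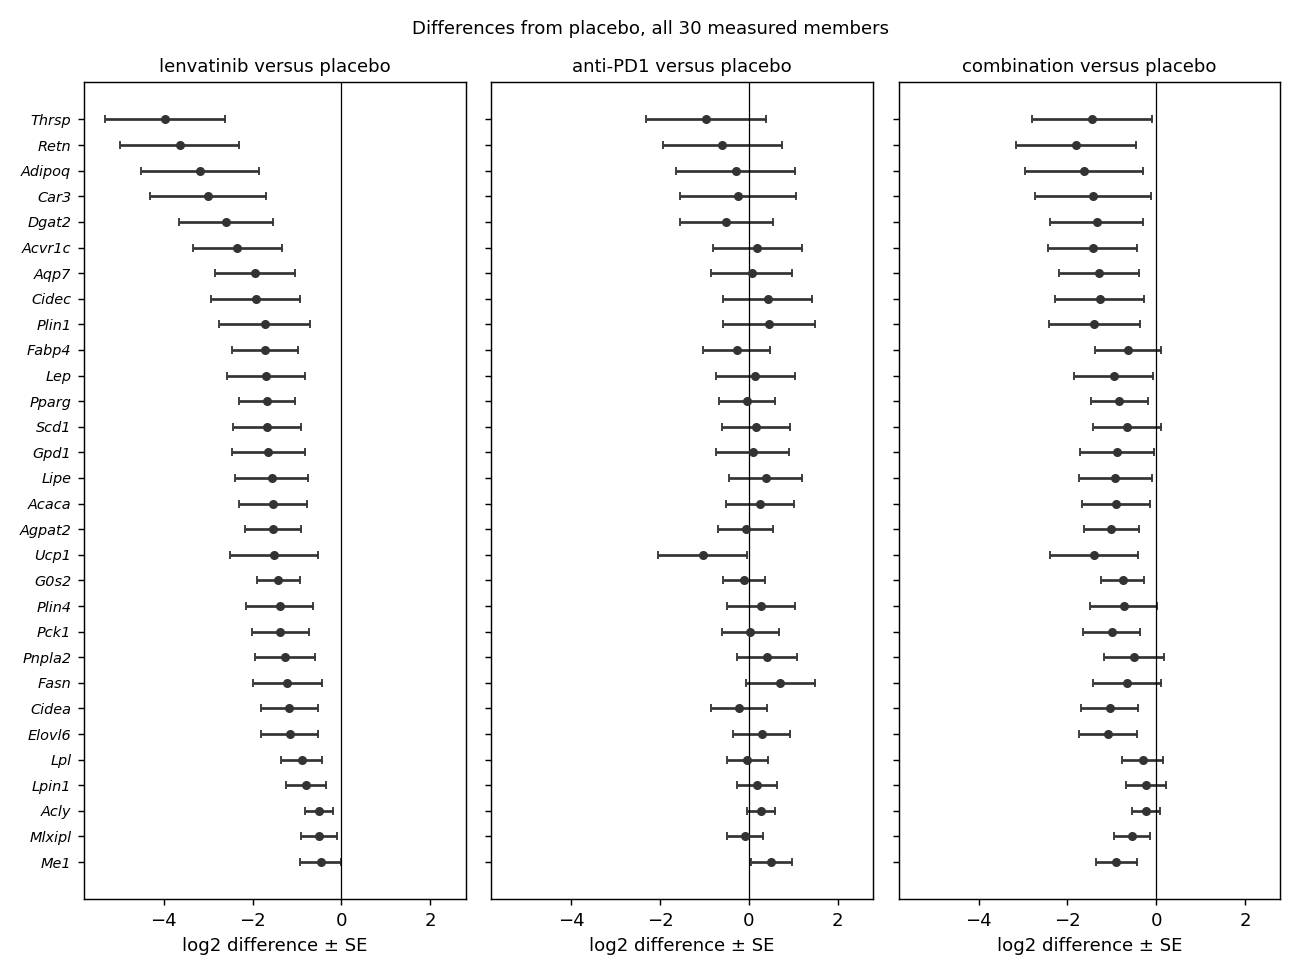
Log2 difference from placebo (points, with SE) of the 30 measured members in lenvatinib, anti-PD1 and combination tumours. All 30 points lie below 0 in the lenvatinib and combination panels and 13 of 30 in the anti-PD1 panel, and no member passed the adjusted threshold in any of the 3.

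The combination was also set against each agent alone. Against lenvatinib, 28 of 30 members were higher on average in combination tumours, with a median difference of 0.66, and 0 passed (0% of all probe sets). At an unadjusted p under 0.05 again 0 members were called, where 3.87% of all probe sets were higher and 2.53% lower. Thrsp averaged 8.50 ± 2.17 in combination and 5.97 ± 2.13 in lenvatinib tumours, a difference of 2.54 ± 1.41 (SE, limma adjusted p = 0.799). Adipoq differed by 1.56 ± 1.39, Retn by 1.83 ± 1.41, Fabp4 by 1.09 ± 0.78, G0s2 by 0.66 ± 0.50 and Fasn by 0.56 ± 0.81. As each mouse was left out, Adipoq lay between 1.00 (without lenvatinib mouse 3) and 2.54 (without combination mouse 1), and Fasn between 0.18 (without combination mouse 3) and 1.01 (without combination mouse 5). In the same comparison all 8 hepatoma markers (median -1.28) and all 7 mitosis genes (median -1.08) were lower, and all 7 macrophage genes were higher (median 0.95, 5 at an unadjusted p under 0.05). Their part in the members' values was not tested. Against anti-PD1, all 30 members were lower on average in combination tumours, with a median of -0.99, and 0 passed (0% of all probe sets). Me1, at 9.18, 9.58, 10.21, 9.10 and 7.11 in combination tumours and 10.72, 11.60, 9.60, 10.87 and 9.42 in anti-PD1 tumours, differed by -1.41 ± 0.48 (limma adjusted p = 0.317). It was the 1 member with an unadjusted p under 0.05, where 2.79% of all probe sets were lower and 4.85% higher. Only 2 of its 5 combination values, in mice 2 and 3, reached the anti-PD1 range. Me1 lay between -1.70 (without combination mouse 3) and -0.93 (without combination mouse 5) as each mouse was left out. The differences were -1.38 ± 0.67 for Elovl6, -1.36 ± 0.81 for Fasn, -1.84 ± 1.08 for Plin1 and -1.34 ± 1.39 for Adipoq, the last of which was 0.74 with array weights and 0.14 without the arrays with bright controls. Leaving out anti-PD1 mouse 2 gave a members' median of -0.44, and leaving out anti-PD1 mouse 5 gave -1.64. Adipoq lay between -2.51 (without anti-PD1 mouse 5) and -0.35 (without combination mouse 1), and Fasn was -0.82 without anti-PD1 mouse 2. In the same comparison all 7 macrophage genes were higher (median 1.40, 6 at an unadjusted p under 0.05), 6 of 7 endothelial genes were lower (median -0.61), and 6 of 8 hepatoma markers were lower (median -0.19). Their part in the members' values was not tested.

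Averaged over both antibody settings, lenvatinib-treated tumours had lower means than lenvatinib-free tumours for all 30 members. The median difference was -1.26, with a range of -2.43 to -0.48, and 0 members passed (0% of all probe sets). Before adjustment, 25 of 30 members were lower and 0 higher at p under 0.05, where 4.06% of all probe sets were lower and 1.83% higher. Because the members varied together between tumours, these 25 are not independent results, and they describe a list chosen with earlier results of these data known. The 5 that missed even this threshold were Fabp4, Lpl, Lpin1, Mlxipl and Ucp1. Adipoq spanned 4.01 to 9.83 with a median of 7.96 in lenvatinib-treated tumours, against 4.58 to 11.98 with a median of 10.996 in lenvatinib-free tumours. Its difference was -2.26 ± 0.96, with a 95% interval of -4.27 to -0.26 (limma adjusted p = 0.829). Fasn differed by -1.29 ± 0.56, G0s2 by -1.04 ± 0.35, Me1 by -0.94 ± 0.33, Agpat2 by -1.24 ± 0.45 and Acvr1c by -1.99 ± 0.72, all with the same adjusted p. Hepatoma markers were higher on average for 7 of 8 genes in lenvatinib-treated tumours, with a median of 0.84 and 0 past the threshold, and their part in the members' values was not tested.

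Averaged over both lenvatinib settings, antibody-treated tumours had higher means than antibody-free tumours for 27 of 30 members, with a median of 0.40 and 0 past the threshold (0% of all probe sets). At an unadjusted p under 0.05, 0 members were called, where 0.788% of all probe sets were higher and 0.73% lower. Adipoq differed by 0.63 ± 0.96, Fasn by 0.63 ± 0.56, Pnpla2 by 0.59 ± 0.49, Lpin1 by 0.38 ± 0.32 and Acly by 0.28 ± 0.23. Without anti-PD1 mouse 2 the members' median was 0.14 and Adipoq 0.29, and without anti-PD1 mouse 5 they were 0.73 and 1.22. In the same comparison all 12 muscle genes were lower (median -0.96) and all 7 endothelial genes higher (median 0.46), and their part in the members' values was not tested. The interaction of the agents, the departure from additivity on the log2 scale, was above 0 for 25 of 30 members, with a median of 0.59 and 0 past the threshold (0% of all probe sets). At an unadjusted p under 0.05, 0 members were called, where 5.7% of all probe sets were above 0 and 3.31% below. It was 3.51 ± 1.95 for Thrsp (limma adjusted p = 0.639), 2.42 ± 1.95 for Retn, 1.86 ± 1.93 for Adipoq, 1.36 ± 1.08 for Fabp4, -0.94 ± 0.67 for Me1 and -0.15 ± 1.12 for Fasn. The members' median lay between 0.0034 (without anti-PD1 mouse 5) and 0.99 (without anti-PD1 mouse 2), and it was 0.10 without placebo mouse 1 and 0.14 without anti-PD1 mouse 3. For Adipoq the range was 0.69 (without anti-PD1 mouse 5) to 2.84 (without combination mouse 1). In the interaction all 8 hepatoma markers (median -2.01) and all 7 mitosis genes (median -1.78) were below 0, and all 7 macrophage genes were above 0 (median 2.10, 6 at an unadjusted p under 0.05), as were all 12 muscle genes (median 1.09). Their part in the members' values was not tested. In each of the 8 comparisons 0 genes of these marker lists passed the adjusted threshold.

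How far the other members differed between arms at an equal Adipoq signal was asked by adding the Adipoq signal of each tumour to the fit. The median difference of the other 29 members was then -0.07 in lenvatinib, 0.24 in anti-PD1 and -0.11 in combination tumours, each against placebo. It was -0.07 for combination against lenvatinib and -0.26 for the interaction, with 17 and 20 of 29 below 0, where both medians were above 0 without Adipoq in the fit. It was -0.32 for combination against anti-PD1, -0.19 for lenvatinib-treated against lenvatinib-free and 0.09 for antibody-treated against antibody-free tumours. None of the 29 passed in any of the 8 comparisons, where 0% of all probe sets were called in 7 and 0.0135% in combination against anti-PD1. Fasn differed by 0.07 ± 0.64 and Acly by -0.07 ± 0.31 between lenvatinib and placebo tumours at an equal Adipoq signal. Thrsp differed by -0.84 ± 0.39 and G0s2 by -0.58 ± 0.37 there, and Plin1 by 0.58 ± 0.43 the other way. Of the 29 members 18 were below 0 in that comparison. Between combination and anti-PD1 tumours Me1 differed by -1.19 ± 0.44 (limma adjusted p = 0.293). Adipoq was itself measured after treatment, so these values describe tumours of like Adipoq signal and are no estimate of a drug effect.

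Which members followed the adipocyte marker was tested among tumours of the same arm, by a slope on the Adipoq signal with the 4 arms in the model. A slope of 1 means that a member changed by the same factor as Adipoq. Of the other 29 members, 23 rose with Adipoq and 0 fell, where 4.03% of all probe sets rose and 5.28% fell (limma adjusted p under 0.05). Many members were listed as adipocyte genes, and the list was chosen with earlier results of these data known. The count is thus a description and no independent test of the list. Within the 15 arrays with dim controls 25 members rose, and within the 6 with bright controls, with 1 residual degree of freedom, 0 did. The closest were Retn, with a slope of 1.00 ± 0.03 (SE), Thrsp with 0.98 ± 0.06 and Car3 with 0.96 ± 0.05. Among the droplet and lipolysis genes, Cidea included, 6 of 7 rose, with 0.72 ± 0.06 for Plin1, 0.71 ± 0.06 for Cidec and 0.26 ± 0.05 for G0s2. All 3 uptake genes and all 5 glycerolipid genes rose, from 0.22 ± 0.06 for Lpin1 to 0.76 ± 0.05 for Dgat2. Lep rose by 0.61 ± 0.06, Pparg by 0.39 ± 0.06 and Acvr1c by 0.67 ± 0.08 per log2 unit of Adipoq.

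Of the 8 fatty acid synthesis genes 4 rose. Besides Thrsp these were Scd1, with 0.54 ± 0.04, Acaca with 0.45 ± 0.08 and Fasn with 0.40 ± 0.09 (limma adjusted p = 0.0106). Without anti-PD1 mouse 2 and placebo mouse 1 the slope of Fasn was 0.32 (adjusted p = 0.0517), and with mouse number as a block it was 0.38 (adjusted p = 0.0805). The slopes of Elovl6 (0.27 ± 0.09), Me1 (0.16 ± 0.07), Mlxipl (0.14 ± 0.06) and Acly (0.14 ± 0.04) did not pass, with adjusted p of 0.0595, 0.144, 0.158 and 0.0598. Acly passed in 11 of 32 alternative settings, with slopes of 0.06 to 0.21 over all of them. Of the brown fat genes, Cidea (0.23 ± 0.09) and Ucp1 (0.20 ± 0.16) did not pass. By class, 5 of 7 adipocyte-restricted genes other than Adipoq rose, with a median slope of 0.61, and 6 of 9 lipogenic enzymes did, with a median of 0.40. The difference between these slopes was not tested.

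**Figure D4:**
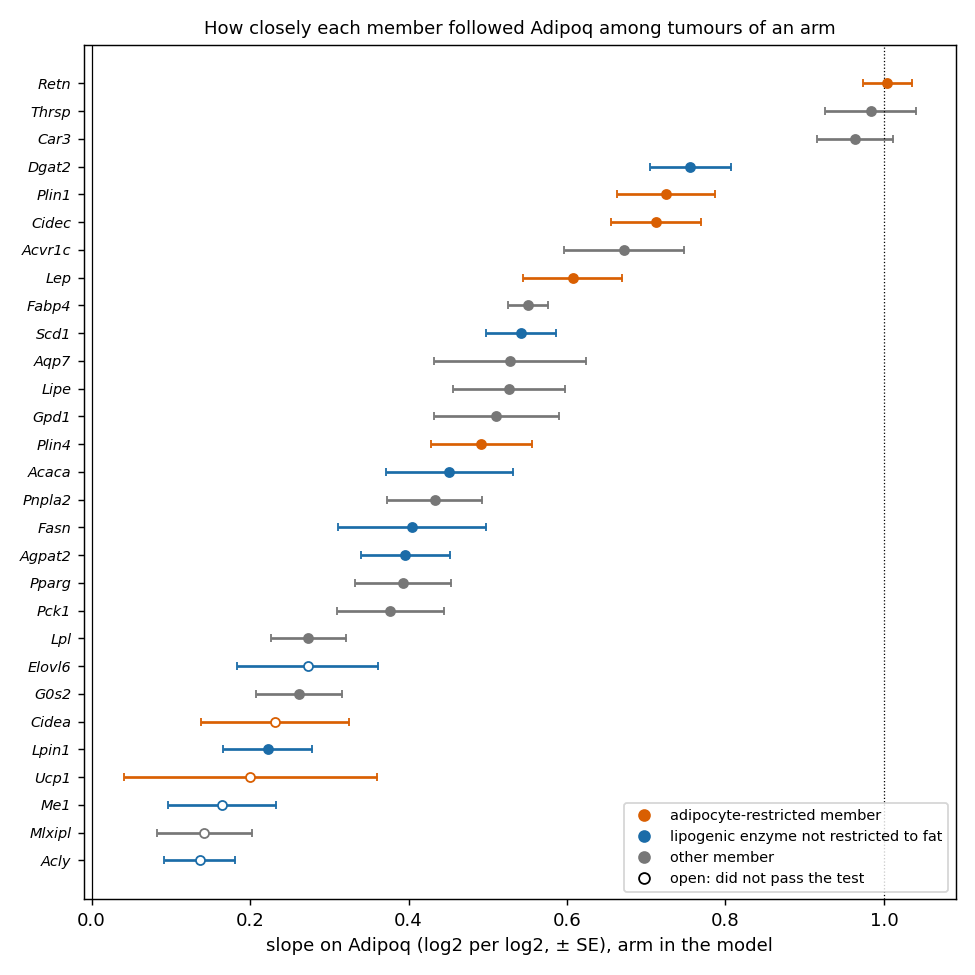
Slope of each of the 29 other members on the Adipoq signal of the same tumour (points, with SE, in log2 per log2), with arm in the model. Filled and open points are as keyed, the dotted line marks a slope of 1, and the slopes run from 0.14 for Acly to 1.00 for Retn.

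Other genes of these pathways were read in the same fit. Of 15 further adipocyte genes 13 rose with Adipoq and 0 fell, led by Adig, adipogenin, with 0.68 ± 0.05, and with 0.60 ± 0.08 for Lgals12, an adipocyte galectin. Of 11 further brown fat genes 2 rose, Cox8b with 0.93 ± 0.11 and Slc36a2 with 0.23 ± 0.06, and the slope of Ppargc1a was 0.31 ± 0.14 (adjusted p = 0.180). Of 13 further genes of fatty acid synthesis and its regulation by SREBP-1, 5 rose and 0 fell. They were Pnpla3 (0.35 ± 0.07), the citrate carrier Slc25a1 (0.18 ± 0.05), the acetyl-CoA synthetase Acss2 (0.23 ± 0.05), Insig1 (0.23 ± 0.06) and Nr1h3, which encodes LXR alpha (0.18 ± 0.05). Srebf1, the gene of SREBP-1 itself, had a slope of -0.02, and the desaturase Fads2 had -0.20 ± 0.09 (adjusted p = 0.165). Of 14 cholesterol synthesis genes 1 rose and 4 fell, among them Sqle, squalene epoxidase, with -0.32 ± 0.08 and Fdps, farnesyl diphosphate synthase, with -0.20 ± 0.06.

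Markers of other cells moved with Adipoq to differing extents. Of 8 hepatoma markers 5 fell and 0 rose, among them Ambp, a plasma protein made in liver, with -0.53 ± 0.09, while Afp had -0.55 ± 0.18 (adjusted p = 0.0598). All 7 mitosis genes fell, with -0.45 ± 0.11 for Cdk1 and -0.38 ± 0.10 for Plk1. Of 7 endothelial genes Tek (0.30 ± 0.08) and Cldn5 (0.32 ± 0.09) rose, and of 7 genes of fibroblasts and preadipocytes 3 rose, among them Lum, the matrix protein lumican, with 0.52 ± 0.10, while Mfap5 had 0.16 ± 0.06 (adjusted p = 0.112). In the lists of skeletal muscle (12 genes), macrophages (7), epidermis (7), sebaceous gland (7) and mammary epithelium (8), 0 genes passed in either direction. Their most variable genes had slopes of 0.50 ± 0.34 for Myh4 and 0.42 ± 0.33 for Atp2a1 of muscle, and of 0.07 ± 0.08 for Adgre1 and 0.03 ± 0.10 for Mrc1 of macrophages. In the epidermis list Krt14 had 0.20 ± 0.09 and Sbsn -0.10 ± 0.07, and in the sebaceous list Far2 had 0.03 ± 0.06 and Mc5r 0.07 ± 0.05. Of the caseins Csn3 had 0.14 ± 0.10 and Csn2 0.04 ± 0.11. The muscle score, the mean of the 12 centred signals, spanned -1.93 to 4.86 and had its highest values in combination mouse 2 (4.86), placebo mice 1 (4.22) and 5 (4.19), lenvatinib mouse 4 (4.18) and anti-PD1 mouse 2 (3.23). Adipoq in these 5 tumours ran from 7.86 to 11.98. Sebaceous glands and the mammary gland also make lipid, and their scores spanned -0.31 to 1.34 and -0.62 to 0.85 over the 21 tumours. Of the 7 sebaceous genes 4 had a mean below the control median, so their slopes could show little, and 1.34 was lenvatinib mouse 2. The mammary list holds Krt18 and Krt8, which rose with the hepatoma score read below (0.43 ± 0.08 and 0.33 ± 0.10). Its score is thus no measure of mammary tissue alone. Csn1s1, a milk casein gene, was below the control median in every tumour. Csn2, another casein, reached 7.45 in mouse 4 of the anti-PD1 arm and 7.03 in mouse 5 of the combination arm, and was at 5.22 or less in the other 19. Csn3, the most variable gene of the mammary list, was highest in placebo mouse 4 (9.61), placebo mouse 6 (9.51), anti-PD1 mouse 4 (9.28) and combination mouse 5 (8.72), the first 3 of which are among the 6 tumours high in the members. Its part in the members' values was not tested.

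**Figure D5:**
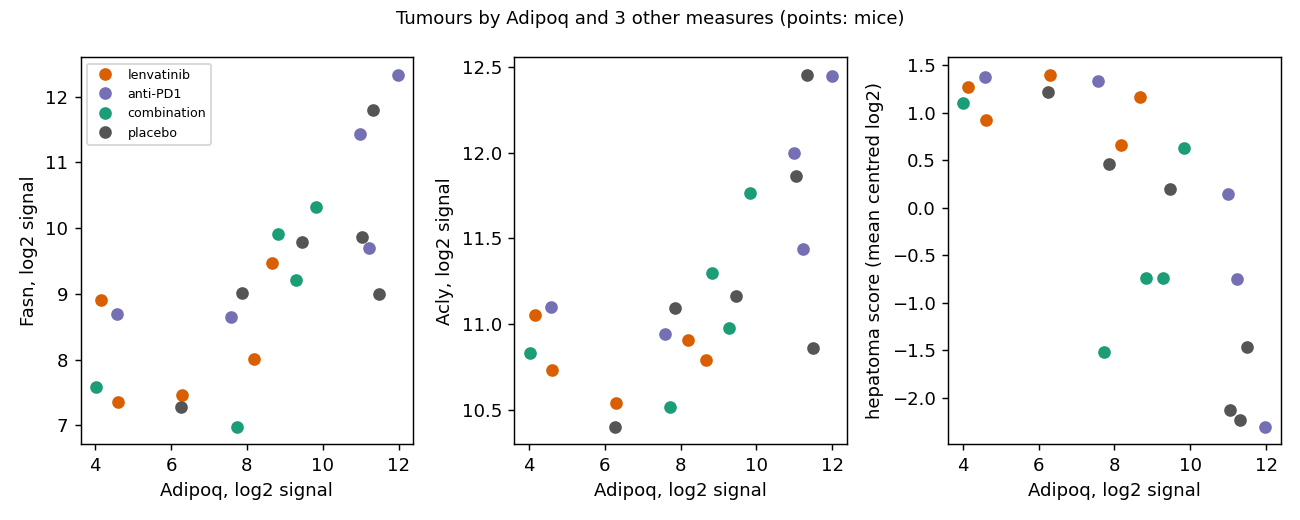
Each of the 21 tumours by its Adipoq signal (x axis, log2) and by its Fasn signal, Acly signal and hepatoma score (y axes, log2 or the mean of centred log2 signals), coloured by arm. The hepatoma score runs from -2.30 in anti-PD1 mouse 2, the tumour with the most Adipoq, to 1.40 in lenvatinib mouse 2.

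The same members were read against the hepatoma score, the mean of the 8 centred hepatoma markers, again with arm in the model. Of 30 members 26 fell with this score and 0 rose, where 6.74% of all probe sets fell and 8.4% rose. Here too the members varied together and the list was chosen with earlier results of these data known. As 5 of the 8 hepatoma markers fell with Adipoq, this count partly repeats the slopes on Adipoq. It is a description and no independent test. The slope, in log2 units per unit of the score, was -1.42 ± 0.31 for Adipoq, -1.41 ± 0.32 for Retn, -1.15 ± 0.23 for Plin1 and -1.03 ± 0.19 for Lep. Among the enzymes it was -0.84 ± 0.17 for Acaca, -0.81 ± 0.18 for Scd1 and -0.27 ± 0.09 for Acly (limma adjusted p = 0.0454), the last of which passed in 13 of 31 alternative settings. The 4 members that did not pass were Fasn (-0.60 ± 0.22, adjusted p = 0.0728), Elovl6 (-0.45 ± 0.19), Ucp1 (-0.64 ± 0.30) and Me1 (-0.19 ± 0.15). None of the 9 lipogenic enzymes among the members rose with the hepatoma score. Of the 13 further genes of fatty acid synthesis and SREBP-1, 5 fell and 1 rose, Fads2 with 0.49 ± 0.16 (limma adjusted p = 0.0383). Of the 14 cholesterol synthesis genes 4 rose, among them Sqle with 0.79 ± 0.12, and 1 fell. Over the 15 arrays with dim controls 23 members fell, and over the 6 with bright controls, with 1 residual degree of freedom, 0 did.

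By correlation over the 21 tumours, which share arms and arrays, the named genes most like Adipoq outside the list were Mup9 (Pearson r = 0.964), Ces1d (0.962), Adig (0.959), Amy1 (0.956), Abca8a (0.955), Ghr (0.950), Ntrk2 (0.939) and Car5b (0.939). Mup9 belongs to a family of near-identical genes, so its probes may read other members too. Those most like Fasn were Slc25a1 (0.931), Itih5 (0.928), Slc1a5 (0.914), Steap4 (0.901), Fry (0.899), Tmem45b (0.894), Aldh1a7 (0.887) and Trarg1 (0.886). The 2 sets of 8, which leave out members, shared no gene. Fasn itself correlated with Adipoq (0.743), and Trarg1 is one of the further adipocyte genes that rose with Adipoq (slope 0.40 ± 0.06). Among all 19571 other named probe sets the first 5 places for Adipoq were members (Retn, Fabp4, Car3, Dgat2 and Thrsp), and the members among the first 10 places for Fasn were Acly (place 1, 0.932), Aqp7 (4, 0.914), Lipe (6, 0.911), Gpd1 (7, 0.901) and Elovl6 (10, 0.894).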

How the data were processed

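RNA of 21 tumours was hybridized, 1 mouse per array. Per the submitters' processing notes, which name RMA and oligo, the authors summarized probes by RMA, and the deposited values are its log2 output. No source used here gives versions or a genome build. The table has 29129 rows, of which 6923 are controls and were not tested. Of the other 22206 probe sets 19572 carried 1 gene symbol and 2634 were unnamed here. Groups came from the labels (5 lenvatinib, 5 anti-PD1, 5 combination and 6 placebo). Depth has no meaning for arrays, and the number of mice limits precision. Arm means were fitted with limma 3.58.1 (lmFit, eBayes; R 4.3.3, statmod 1.5.0), with 8 contrasts, then slopes on the Adipoq signal or on the hepatoma score with arm in the model, and Benjamini-Hochberg adjustment over all probe sets (threshold 0.05). The same code was tested on simulated data. The members and gene lists were chosen with earlier results of these data known. Differences are given for Adipoq, Fasn and the 4 members with the smallest p in each comparison. Values of every tumour are given for 11 members named in the rule, and for G0s2 and, in part, Me1. The others, most of which passed a slope threshold, are given by range and in the heatmap. From each other list the 2 genes with the largest SD were named. Alb, Myh4, the caseins, the single brown fat genes of placebo mouse 1 and the list genes beyond those 2 were named after their values were seen. Alternatives changed the filter on dim probe sets, the normalization, the variance model, array weights, the mouse number as a block, the hybridization controls and each mouse in turn.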

Additional observations from a re-analysis of the deposited data

Results flagged for a closer look

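Each member was examined in each arm for a tumour far from the others of its arm, by Dixon's test at 95%. Of 120 groups examined, 5 were marked, and chance marks about 1 in 20. Ucp1 was at 11.36 in placebo mouse 1, against 2.95 to 3.51 in the other placebo tumours. Mlxipl was at 6.90 in anti-PD1 mouse 2, against 4.62 to 5.27 in the other anti-PD1 tumours. Lpin1 was at 7.90 in lenvatinib mouse 4, against 6.38 to 6.78 in the other lenvatinib tumours. Me1 was at 8.60 in lenvatinib mouse 2, against 9.48 to 9.82 in the others of that arm. Fabp4 was at 8.86 in combination mouse 1, against 11.66 to 12.54 in the other combination tumours.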

How the results depend on the processing

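In all 8 contrasts 0 members passed under every alternative run. The lenvatinib against placebo median of the members was -1.42 with the replicate block and -0.066 with Adipoq as a covariate. With that covariate Fasn differed by 0.073 (lenvatinib against placebo), 0.0018 (combination against placebo) and -0.072 (combination against lenvatinib). With array weights Adipoq differed by 0.74 (combination against anti-PD1), and the interaction of Fasn was 0.17. Without the 6 arrays with bright controls Adipoq differed by 0.058 (anti-PD1 against placebo), 0.19 (combination against placebo) and 0.14 (combination against anti-PD1). As each mouse was left out in turn, anti-PD1 against placebo lay between -0.98 and 0.87 for Adipoq (0.05 without placebo mouse 1, 0.08 without placebo mouse 4, 0.13 without anti-PD1 mouse 3, 0.87 without anti-PD1 mouse 5) and between -1.37 and 0.31 for Ucp1. The interaction of Fasn lay between -0.61 and 0.40. Over the 6 bright-control arrays alone, with 1 residual degree of freedom, 0 members rose with Adipoq and 0 fell with the hepatoma score, and the Adipoq slopes were -0.013 for Acaca, 0.48 for Lep and 0.20 for Cidec. The count rising with Adipoq was otherwise 21 to 28, and that falling with the hepatoma score 22 to 29. Without placebo mouse 1 and anti-PD1 mouse 2, a setting chosen after seeing the data, these were 21 and 22, and Ucp1 differed by 0.30 between anti-PD1 and placebo. Whether mouse numbers pair the samples is not given in the sources used here, and correlations could not decide it. Of 30 same-number pairs 15 correlated above 0.1, with a median r of 0.10, against -0.04 for pairs with another number. Of 21 mice 3 correlated best with their own number. With the replicate block 21 members rose with Adipoq, and Fasn did not pass (0.38, adjusted p = 0.0805). Averaging all probe sets of a gene could not be told from the reported setting, since each member had 1. The cause of these shifts was not tested.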
